A study of Mus musculus with 3 samples.

Results

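The cytosolic and mitochondrial chaperones are 40 genes of protein folding, chosen by name from the 50600 genes counted in mouse T-helper 1 (Th1) cells, and all 40 were found in the gene annotation. They comprise 3 HSP90 chaperones, 5 members of the HSP70 and HSP110 families, the 2 parts of the mitochondrial chaperonin, the 8 subunits of the cytosolic chaperonin CCT, 5 prefoldin subunits, 6 J-domain proteins, 6 cochaperones of HSP90 and HSP70, 4 immunophilins and the transcription factor Hsf1. Th1 cells are helper T cells whose signature cytokine is interferon gamma. RNA sequencing was done on primary Th1 cells of the mouse strain C57BL/6NJ, as a single group of 3 libraries numbered biological replicates 1, 2 and 3. No allele or transgene is named for the group, the labels link a protocol for CD4 T-cell differentiation, the 3 libraries share a donor record, and sex, age and stage are not given. A time of 72 hours and the word sorted stand in the headers of the files. With 1 group there was no contrast between conditions, so the comparisons are between genes within each library and between libraries.

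Chaperones bind unfolded proteins and release them in cycles of ATP binding and hydrolysis. HSP70 proteins, loaded by J-domain proteins and reset by HSP110 exchange factors, take up newly made chains, and HSP90 receives a subset of clients from HSP70, among them steroid receptors and many kinases, including the T-cell kinase Lck. CCT is a double ring that folds actin and tubulin, to which prefoldin hands its clients, while HSPD1 and HSPE1 form the folding chamber of the mitochondrial matrix. Hsf1 is the factor that switches on many of these genes under heat or proteotoxic stress, through heat shock elements made of inverted GAA units.

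The libraries held 4482916, 266790 and 3733531 counts in replicates 1, 2 and 3, so values of replicate 2 rest on far fewer fragments. All 9 markers of T cells and Th1 cells had a mean of at least 1 TPM (the count of a gene per base of its exons, scaled to the same sum in each library), led by Ifng at 604 ± 252 TPM and Trac at 222 ± 81.3 TPM (SD, n = 3), while the Th1 chemokine receptor Cxcr3 had 1.30 ± 1.16 TPM. Cd3e had 34.2, 1.90 and 18.9 TPM in replicates 1, 2 and 3, from 292, 1 and 157 counts, and Stat4 had 24.0 ± 6.48 TPM. Of the 22 markers of other cell types, 17 lay below 1 TPM and 11 had no count at all. Among the others Cd79a had 8.23 ± 4.00, Pecam1 4.58 ± 1.46 and Cd8b1 2.28 ± 2.26 TPM, each above Cxcr3. The summed level of the 22 was 103, 131 and 155 TPM in replicates 1, 2 and 3, most of it from Csf1r, whose exons overlap a gene on the other strand. Such an overlap was present in 16.2% of all genes. Their part of the fragments counted was 51.7%, 55.1% and 66.5% across replicates 1, 2 and 3. The counting used strand setting 1, and mt-Nd6, encoded on the other mitochondrial strand from mt-Co1, had 18316, 1673 and 13631 counts against 10721, 546 and 5027 for mt-Co1 in replicates 1, 2 and 3. Whether the strand counted was the strand of the RNA was not tested, so each level below is that of the counted strand.

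Chaperone genes stood high in the Th1 libraries as a set. All 40 had a mean of at least 1 TPM, and 39 had at least 10 TPM, the exception being Dnajb6 at 7.11 ± 6.08 TPM (SD, n = 3). A mean of at least 100 TPM was reached by 23 of the 40, a level reached by 4.06% of 21751 nuclear protein-coding genes. Hsp90ab1 ranked 7 among those genes, Hspa8 ranked 69, Hspd1 ranked 123 and Hsp90aa1 ranked 124. Together the 40 genes held 1.33%, 1.16% and 0.759% of all TPM in replicates 1, 2 and 3, a mean of 1.08% ± 0.291 (SD, n = 3).

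Each gene was set against the median gene, at 15.7 TPM among the 11595 genes with a mean count of at least 10, in a quasi-likelihood fit over the libraries. By edgeR's test with Benjamini-Hochberg adjustment over all genes, 37 of the 40 chaperone genes (92.5%) lay above the median at an adjusted p under 0.05, beside 35.1% of all genes tested. Below the median edgeR called 0 of the 40, beside 23.8% of all genes. It called 0 also at an unadjusted p under 0.05, and limma likewise called 0. The unadjusted and limma counts have no share of all genes beside them. The 3 that passed in neither direction were Fkbp5 (adjusted p = 0.223), Dnajb1 (0.425) and Dnajb6 (0.0869), at log2 levels over the median of 0.49, 0.38 and -0.97. The p-values measure the spread between these libraries alone, and with 3 libraries an exact sign-flip permutation test cannot go below 0.25.

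**Figure D1:**
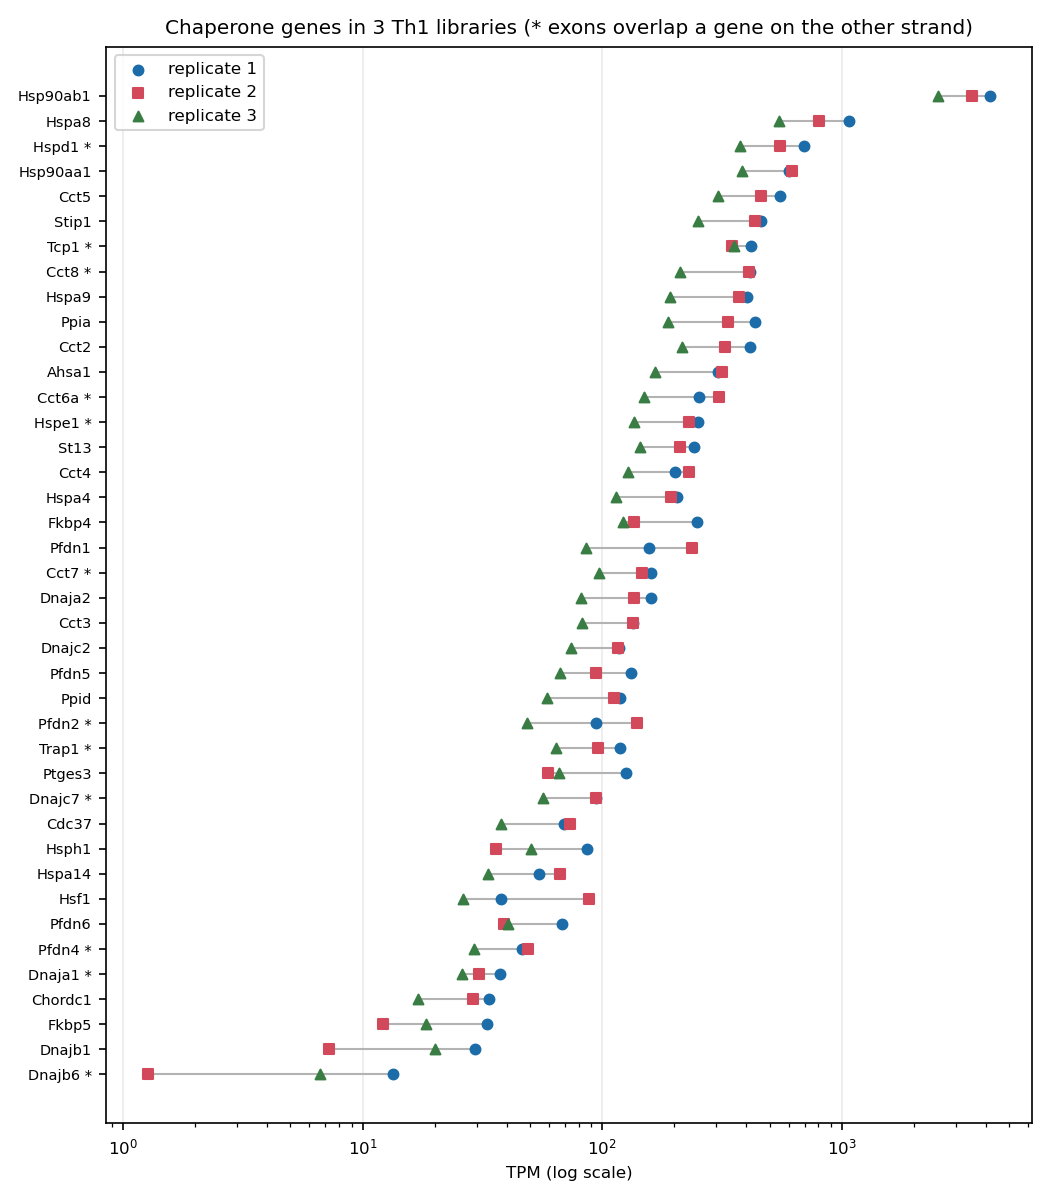
TPM on a log axis for each of the 40 chaperone genes, 1 point per library and a grey line over the range of the 3 libraries, ordered by mean; an asterisk marks genes whose exons overlap a gene on the other strand. Hsp90ab1 stands apart at 2517 to 4155 TPM, replicate 3 is the lowest point of most genes, and the widest spreads are at the bottom, where Dnajb6 lies between 1.28 and 13.4 TPM.

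HSP90 was the most abundant chaperone family and most of it came from the constitutive cytosolic gene Hsp90ab1. The stress-inducible cytosolic Hsp90aa1 (chr12:110690605-110702728, mm10, minus strand) had 601, 620 and 382 TPM in replicates 1, 2 and 3, and the mitochondrial Trap1 had 118, 96.3 and 64.3 TPM. Hsp90ab1 (chr17:45567775-45573271, minus strand) had 4155, 3484 and 2517 TPM. In every library the order was Hsp90ab1, Hsp90aa1, Trap1, with no overlap between the genes. Hsp90aa1 over Hsp90ab1 gave log2 ratios of -2.79, -2.49 and -2.72 in replicates 1, 2 and 3, a geometric mean 6.35-fold lower (edgeR's quasi-likelihood test, adjusted p = 6.49e-05), in a comparison where 99.3% of all genes tested were lower than Hsp90ab1. Trap1 was 36.8-fold lower than Hsp90ab1 (adjusted p = 9.36e-06), and folds between genes below are geometric means over the libraries with the same test. Hsp90aa1 shares 58.5% of its 50-base stretches with other annotated transcripts and Hsp90ab1 4.49%, and the recorded counting command has no option for fragments that map to several places, so the level of Hsp90aa1 is less certain.

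Among the HSP70 chaperones the constitutive cytosolic Hspa8 led. Hspa9, the mitochondrial HSP70 that pulls imported proteins into the matrix, had 401, 374 and 192 TPM in replicates 1, 2 and 3. Hspa8 (chr9:40800984-40810087, plus strand), which folds new chains and uncoats clathrin vesicles, had 1077, 806 and 550 TPM. Hspa9 lay below Hspa8 in each library, by 2.55-fold (adjusted p = 0.00197), where 96.4% of all genes were lower than Hspa8. Of Hspa8's 50-base stretches, 74.8% also occur in other annotated genes.

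Hsph1, the heat-inducible HSP110 exchange factor that resets HSP70, had 86.8, 36.2 and 50.4 TPM in replicates 1, 2 and 3. Hspa4, an exchange factor of the same type, had 205, 193 and 114 TPM, 4.73-fold below Hspa8 (adjusted p = 0.000163). Hsph1 was lowest in replicate 2 and Hspa4 in replicate 3. Hsph1 was 3.06-fold lower than Hspa4 (adjusted p = 0.00603, with 85.6% of all genes lower than Hspa4), and below it in all 3 libraries. The size of this gap depends on the length assigned to each gene. By edgeR its log2 ratio was -1.49 with all annotated exons and -0.82 with the principal transcript alone (adjusted p = 0.0457). Hspa14, which works at the ribosome with the J-domain protein DNAJC2, had 54.7, 66.8 and 33.4 TPM, against 117, 117 and 73.8 TPM for Dnajc2. Hspa14 was 15.8-fold lower than Hspa8 (adjusted p = 3.21e-05).

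Both parts of the mitochondrial chaperonin were well represented. Hspe1, the HSP10 lid, had 250, 231 and 136 TPM, and Hspd1, the barrel-forming HSP60, had 693, 551 and 375 TPM in replicates 1, 2 and 3. The ratio of Hspe1 over Hspd1 varied little, with log2 values of -1.47, -1.25 and -1.46, a 2.63-fold lower level of Hspe1 (adjusted p = 0.000867, with 94.8% of all genes lower than Hspd1). With the length of the principal transcript in place of all annotated exons, the log2 ratio was -0.59, so the size of this gap depends on the length assigned to each gene. Of the 50-base stretches of Hspd1, 44.8% also occur in 9 other annotated genes, and of those of Hspe1, 44.8% occur in 7. The levels of both genes, and their ratio, are therefore less certain. Hspd1 exceeded its partner of the import path, Hspa9, 1.71-fold (adjusted p = 0.0187, with 3.04% of all genes higher than Hspa9), a call lost without replicate 1 (adjusted p = 0.154), without replicate 2 (0.106), with the principal transcript length (0.0856) and with limma (0.0563).

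Hspd1 and Hspe1 lie head to head on chromosome 1 on opposite strands, and in the deposited annotation their exons share 112 bases. RefSeq promoter windows on GRCm38.p6, from 250 bases before to 50 bases after a transcription start, were at hand for 30 of the 40 genes and were searched on both strands for GAANNTTCNNGAA, the letters of a heat shock element of 3 units. The letters occur in 5 of the 30 genes (16.7%) and in 0.662% of 27025 genes with a window. The 5 are Hspd1, Hspe1, Hsph1, Chordc1 and Dnajb6. Hspd1 and Hspe1 share the match at chr1:55088053-55088082. RefSeq lists an Hspe1 start at position 55088148 and Hspd1 starts at 55087932 and 55088243, and the match lies between the Hspe1 start and the Hspd1 start at 55087932, and downstream of the Hspd1 start at 55088243. Sequences are shown because they are the stretch that the head-to-head pair shares, read on each gene's own strand, with the overlapping matches in capitals.
Hspe1: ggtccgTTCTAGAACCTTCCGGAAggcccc
Hspd1: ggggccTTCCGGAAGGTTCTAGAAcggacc
For Hspe1 the capitals run from 89 to 72 bases before the RefSeq start, and for Hspd1 from 144 to 127 bases before the start at position 55087932.

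The other 3 genes with these letters lay far lower in the order of levels, at 57.8 ± 26.1 TPM for Hsph1, 26.6 ± 8.60 TPM for Chordc1 and 7.11 ± 6.08 TPM for Dnajb6 (SD, n = 3), beside 540 ± 159 TPM for Hspd1 and 206 ± 61.0 TPM for Hspe1. Their matches, again in capitals, are at chr5:29735846-29735870 (plus strand) for Dnajb6, chr5:149636288-149636300 (minus strand) for Hsph1 and chr9:18292263-18292285 (plus strand, 3 overlapping matches) for Chordc1, and are shown to let the spacing of the GAA units be compared.
Dnajb6: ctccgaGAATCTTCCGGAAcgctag
Hsph1: TTCTGGAAAGTTC
Chordc1: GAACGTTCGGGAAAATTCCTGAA
The shorter letters GAANNTTC, part of the longer motif, occur in 8 of the 30 genes and in 9.04% of all genes with a window, and TTCNNGAA in 8 of the 30 and in 9.60%. In bases before a RefSeq start, the Dnajb6 match runs from 46 to 34 or from 127 to 115, by the start taken. That of Hsph1 runs from -36 to -48 or from -15 to -27, and that of Chordc1 from 4 to -18. Negative values lie after the start, so the Hsph1 match is downstream and the Chordc1 run spans the start. A match describes these letters in these windows and shows no binding.

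CCT subunits, which assemble in equal numbers into each ring, summed to 2548, 2366 and 1545 TPM in replicates 1, 2 and 3. With the deposited exon lengths, Cct5 was highest at 553, 460 and 304 TPM and Cct3 lowest at 135, 135 and 82.6 TPM. Tcp1, the founding subunit, had 418, 348 and 357 TPM, and Cct8 had 413, 411 and 211 TPM. Replicate 3 was lowest for every subunit but Tcp1. The other means were 319 ± 99.2 TPM for Cct2, 237 ± 80.5 for Cct6a, 187 ± 52.5 for Cct4 and 135 ± 33.5 for Cct7 (SD, n = 3).

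Of the 7 subunits set against Cct3, 6 were higher by edgeR, beside 7.75% of all genes tested. Cct5 was 3.72-fold higher (log2 1.90, adjusted p = 0.000517) and Cct4 1.58-fold higher (adjusted p = 0.0107), while Cct7 at 1.15-fold did not pass (adjusted p = 0.310). This spread depended on the length assigned to each gene. The deposited length of Cct3 is 6370 bases of exon, against 1977 bases in its principal transcript, and with principal transcript lengths Cct3 had 334, 338 and 216 TPM and Cct5 645, 543 and 373 TPM in replicates 1, 2 and 3. The highest subunit mean was then 2.44-fold above the lowest, against 3.74-fold with exon lengths, and 2 of the 7 subunits passed against Cct3, Cct5 and Tcp1. Cct4, Cct6a and Cct7 changed sign to log2 ratios of -0.27, -0.14 and -0.0092, none past the test, and Cct4 also missed the threshold without replicate 1 (adjusted p = 0.0956) and without replicate 2 (0.0521).

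**Figure D2:**
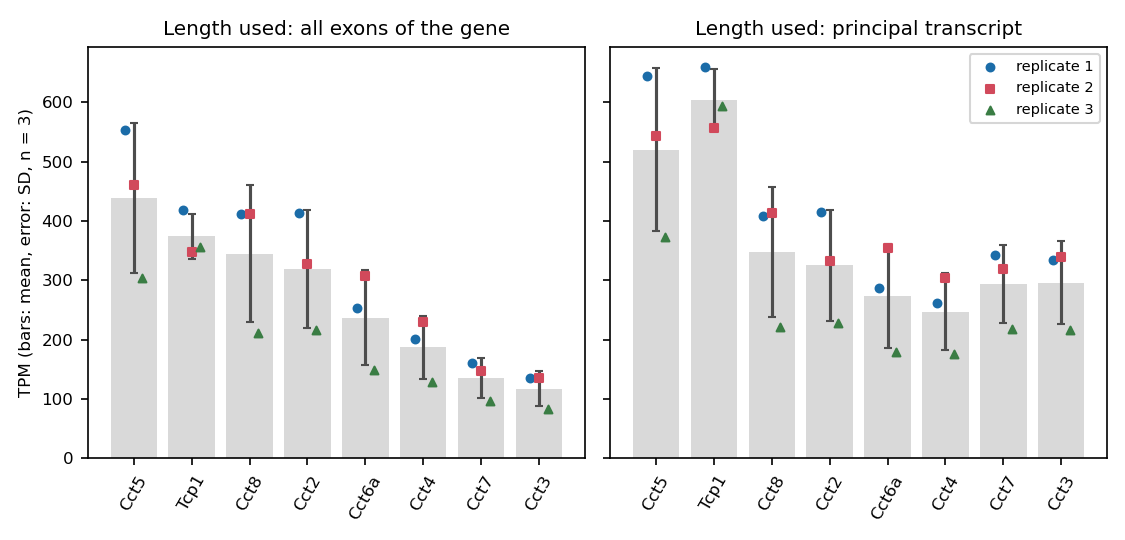
TPM of the 8 CCT subunits in each library (points), with the mean (bars) and SD (error bars, n = 3), computed with the length of all annotated exons on the left and with the principal transcript on the right. Cct3 and Cct7 are the 2 lowest bars on the left and stand above Cct4 and Cct6a on the right.

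Prefoldin subunits lay below most CCT subunits per length. Pfdn1 had 156, 237 and 85.3 TPM, Pfdn2 94.6, 140 and 48.7 TPM, and Pfdn5 132, 94.4 and 66.6 TPM in replicates 1, 2 and 3. Pfdn1 and Pfdn2 were highest in replicate 2 and Pfdn5 in replicate 1, and all 3 were lowest in replicate 3. Pfdn6 and Pfdn4 had 49.0 ± 16.2 and 41.5 ± 10.7 TPM (SD, n = 3). Against Pfdn5, Pfdn4 was 2.32-fold lower (adjusted p = 0.00530) and Pfdn6 1.99-fold lower (adjusted p = 0.0249), in a comparison where 77.0% of all genes were lower. With principal transcript lengths neither passed (adjusted p = 0.521 for Pfdn4 and 0.0512 for Pfdn6), and Pfdn6 also missed the threshold without replicate 1 (0.163) and without replicate 3 (0.0966). Pfdn1 and Pfdn2 were not distinguishable from Pfdn5 (adjusted p = 0.0569 and 0.772), though Pfdn1 passed at a log2 ratio of 0.87 without replicate 1 (adjusted p = 0.0432) and of 0.81 without replicate 3 (0.0458). The deposited counts give Pfdn5 only 17 fragments in replicate 2 and Pfdn6 only 6.

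J-domain proteins, which choose the clients of HSP70 and start its ATPase, had means between 7.11 and 126 TPM. Dnaja1 had 37.4, 30.5 and 26.0 TPM in replicates 1, 2 and 3, and its relative Dnaja2 had 160, 135 and 81.5 TPM. Dnaja1 was 3.91-fold lower than Dnaja2 (log2 ratios of -2.10, -2.15 and -1.65, adjusted p = 0.000741, with 81.1% of all genes lower than Dnaja2). Dnajc7, which binds both HSP70 and HSP90, had 94.5, 93.9 and 56.9 TPM. Dnajb1, the stress-inducible HSP40, had 29.4, 7.25 and 20.1 TPM, from 197, 3 and 131 counts. Its exact 95% Poisson interval in replicate 2 ran from 1.49 to 21.2 TPM and covers the level of replicate 3. Dnajb6, which holds aggregation-prone proteins in solution, had 13.4, 1.28 and 6.64 TPM. Of its 50-base stretches, 41.9% also occur in 8 other annotated genes. Its levels came from 170, 1 and 82 counts, with an interval of 0.0323 to 7.11 TPM in replicate 2.

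Those counts leave the bottom of the order unsettled. Dnajb1 over Dnaja1 (adjusted p = 0.124, with 52.3% of all genes lower than Dnaja1) and Dnajb6 over Dnajb1 (adjusted p = 0.125, with 19.6% lower than Dnajb1) did not pass. Without replicate 2, Dnajb6 was lower than Dnajb1 by a log2 ratio of -1.34 (adjusted p = 0.000286). With principal transcript lengths the sign turned to 0.30 (adjusted p = 0.764), and Dnajb1 was lower than Dnaja1 by -1.11 (adjusted p = 0.00847).

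Stip1, Ahsa1 and Cdc37, which work with HSP90, were each below Hsp90ab1, as were 99.3% of all genes tested. Stip1 (HOP), the bridge that passes clients from HSP70 to HSP90, had 461, 435 and 250 TPM in replicates 1, 2 and 3 and was 8.99-fold lower than Hsp90ab1 (adjusted p = 2.87e-05). Ahsa1, which speeds the ATPase of HSP90, had 304, 316 and 167 TPM and was 13.1-fold lower (adjusted p = 1.89e-05). Cdc37, which brings kinases to HSP90, had 69.1, 73.7 and 37.9 TPM and was 57.4-fold lower (adjusted p = 9.39e-06). The order Stip1, Ahsa1, Cdc37 was the same in all 3 libraries, and all 3 lay lowest in replicate 3. The place and fold of Cdc37 depend on the length assigned to it, 8194 bases of exon and 7851 in its principal transcript. Ahsa1 has 1347 bases of exon. Before division by length, Cdc37 had 1184, 78 and 633 counts in replicates 1, 2 and 3, above 856, 55 and 458 for Ahsa1. St13 (HIP), which holds HSP70 in its substrate-bound state, had 243, 210 and 145 TPM and was 4.01-fold lower than Hspa8 (adjusted p = 0.000219), as were 96.4% of all genes.

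Ptges3 (p23), which stabilises the closed form of HSP90, had 126, 59.3 and 65.8 TPM, highest in replicate 1, and Chordc1, another HSP90-binding protein, had 33.7, 28.9 and 17.0 TPM. Chordc1 was the lowest member above the median gene by edgeR (log2 level of 0.74, adjusted p = 0.0391).

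Immunophilins, the prolyl isomerases bound by immunosuppressive drugs, were led by Ppia. Ppid, the cyclophilin found in HSP90 complexes, had 119, 112 and 59.1 TPM in replicates 1, 2 and 3. Ppia (cyclophilin A), the target of cyclosporin in T cells, had 436, 335 and 188 TPM. Ppid was 3.27-fold lower than Ppia in these libraries (adjusted p = 0.000114, with 91.5% of all genes lower). Of the 50-base stretches of Ppia, 54.3% occur in 38 other annotated genes, and with its principal transcript length its mean was 748 ± 276 TPM (SD, n = 3), which put it at place 3 in the order of the 40 genes in place of 10.

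The HSP90-bound FK506-binding pair differed clearly. Fkbp5 (FKBP51), which lowers the hormone affinity of the glucocorticoid receptor and is itself induced by glucocorticoids, had 33.1, 12.2 and 18.4 TPM in replicates 1, 2 and 3. Fkbp4 (FKBP52), which aids steroid receptors, had 249, 136 and 122 TPM. Both were highest in replicate 1 and their ranges did not overlap. Fkbp5 was 8.21-fold lower than Fkbp4 (log2 ratios of -2.91, -3.48 and -2.72, adjusted p = 1.40e-05, with 84.7% of all genes lower than Fkbp4), and neither gene shares a 50-base stretch with another gene.

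Hsf1 (chr15:76477445-76500972, plus strand) had 37.9, 88.2 and 26.3 TPM in replicates 1, 2 and 3, from 160, 23 and 108 counts. It stood high in replicate 2, where its exact 95% Poisson interval of 55.9 to 132 TPM lay above both other libraries. Hsf1 shares no 50-base stretch with another gene and has no overlap on the other strand.

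Down the order of mean levels, 12 of the 39 steps between neighbours met a descriptive rule. They were in the same direction in every library, with a mean log2 ratio above its SD. The other steps did not meet this rule. The order was made from the same 3 libraries, which largely set the direction of each step. The rule is therefore not a test, and the share of neighbouring pairs among all genes that meet it is not given here. The first steps to meet this rule were from Hsp90ab1 to Hspa8 (log2 2.08 ± 0.13), from Hspa8 to Hspd1 (0.58 ± 0.05) and from Hsp90aa1 to Cct5 (0.29 ± 0.16, SD, n = 3). These hold for exon lengths. With principal transcript lengths Hspa8 stayed above Hspd1, but Hspd1 moved from place 3 to place 7. The mean of Cct5 was then 520 TPM, above 501 TPM for Hsp90aa1. Hspd1 and Hsp90aa1 were not separated from each other. The step from Dnajb1 to Dnajb6 met this rule (1.74 ± 0.70) but did not pass edgeR's test, as given above. Of the 28 pairs of genes set against each other, 23 passed edgeR's test and 17 did so with principal transcript lengths. Against the highest genes nearly any gene passes. Of all genes tested, 99.3% were lower than Hsp90ab1, 96.4% than Hspa8 and 94.8% than Hspd1. Fewer passed in the upward comparisons, with 7.75% higher than Cct3 and 3.04% higher than Hspa9. The total of 23 is thus not particular to chaperone genes.

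Between libraries, 7 of the 40 chaperone genes (17.5%) differed between libraries by at least 2-fold at a chi-square adjusted p under 0.05 on scaled counts, beside 32.2% of all genes. The 7 were Hsph1, Pfdn1, Pfdn2, Dnajb6, Ptges3, Fkbp5 and Hsf1. Among them Hsf1, Pfdn1 and Pfdn2 were highest in replicate 2, and Hsph1, Ptges3, Fkbp5 and Dnajb6 in replicate 1 and lowest in replicate 2. The highest ratio among them was 3.43 for Dnajb6, then 2.67 for Fkbp5 and 2.47 for Hsf1, while Dnajb1 with a ratio of 3.97 did not pass (adjusted p = 0.0635). Whatever the ratio, 36 of the 40 passed the chi-square test, beside 55.5% of all genes, with a median mean count of 660 for the chaperone genes and 83 for all genes tested. The test holds counting error only, and the calls rest on the shallow replicate 2: without it 0 of the 40 passed (14.9% of all genes), against 3 without replicate 1 (Hsf1, Pfdn1 and Pfdn2; 18.0% of all genes) and 5 without replicate 3 (11.8% of all genes). Among the genes with no overlap on the other strand, scaled over these alone, 4 of 28 passed, beside 17.3% of such genes.

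Replicate 3 was the lowest library for 33 of the 40 genes and replicate 2 for the other 7, beside 46.4% and 42.8% of all genes tested. The median chaperone gene in replicate 3 was 0.74 lower on the log2(TPM + 1) scale than the mean of the other libraries, and the median of all genes tested was 0.25 lower. Overlapped genes held 66.5% of the counts in that library, the most of the 3. With TPM computed over genes without an overlap alone, the median of the 28 chaperone genes without an overlap was 0.14 lower in replicate 3, that of all such genes was 0.09 higher, and 16 of the 28 were lowest there, beside 29.5% of such genes. On that scale the median coefficient of variation between libraries was 13.4% for the chaperone genes and 35.3% for all genes without an overlap. The chaperone genes have higher counts, and the part of this in the difference was not tested. Hsp90ab1 varied by 5.87%, Hsp90aa1 by 5.26%, Cct3 by 4.91%, St13 by 4.44% and Dnajc2 by 3.62%, against 57.7% for Dnajb1 and 54.1% for Hsf1.

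**Figure D3:**
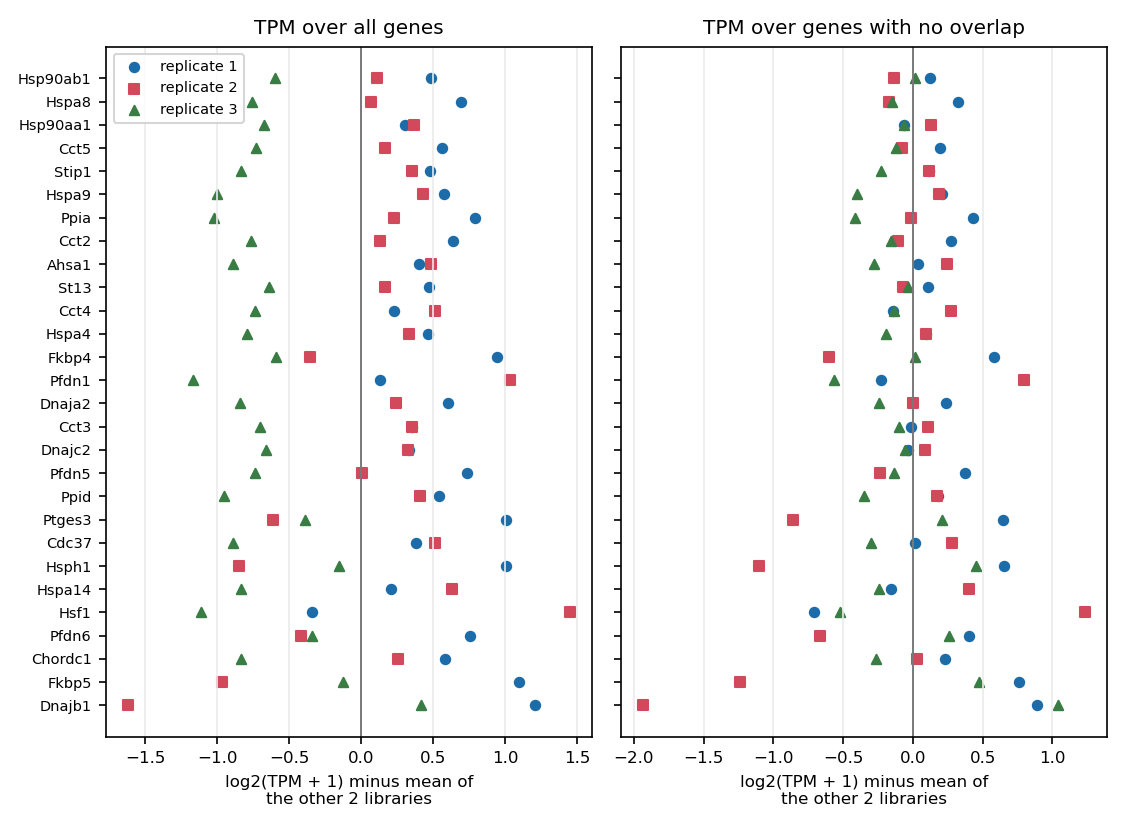
For each of the 28 chaperone genes without an overlap on the other strand, log2(TPM + 1) in each library minus the mean of the other 2 libraries, with TPM over all genes on the left and over genes without an overlap on the right. Replicate 3 lies left of zero for most genes on the left. On the right most genes draw together around zero, while Dnajb1, Fkbp5, Hsph1, Ptges3, Pfdn1, Hsf1, Fkbp4 and Pfdn6 stay spread.

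Exons of 12 of the 40 genes (30%) overlap a gene on the other strand, beside 4662 of the 11595 genes tested. The level of these 12 is less certain where the gene on the other strand is strong. Tcp1 (chr17:12915701-12925067, plus strand) shares 571 exon bases with Acat3, an acetyl-CoA acetyltransferase gene, which had 2347, 2832 and 2747 TPM against 418, 348 and 357 TPM for Tcp1 in replicates 1, 2 and 3. Tcp1 was the only CCT subunit not lowest in replicate 3. Dnajc7 shares 154 exon bases with Cnp, which had 308 ± 74.9 TPM (SD, n = 3), and Pfdn4 shares 639 with the antisense RNA gene Gm16796 at 121 ± 34.9 TPM.

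Pfdn2 shares 535 exon bases with Klhdc9 (132 ± 30.3 TPM), and Cct6a shares 452 with Psph, the last enzyme of serine synthesis (182 ± 43.0 TPM). Trap1, Cct7, Cct8, Dnaja1 and Dnajb6 face Dnase1, Pradc1, Usp16, Smu1 and Gm5129, whose means lie between 12.9 and 60.2 TPM. Klhdc9, Psph, Gm16796, Cnp, Dnase1 and Pradc1 were lowest in replicate 1 or 2, while the chaperone genes they face were all lowest in replicate 3. This was not so for every facing gene. Usp16 and Smu1 were lowest in replicate 3, as were Cct8 and Dnaja1, which they face. Gm5129 was lowest in replicate 3 and Dnajb6 in replicate 2. Dnajc7 also shares 287 exon bases with Nkiras2, which had 83.9, 15.1 and 98.8 TPM in replicates 1, 2 and 3. Hspd1 and Hspe1 face each other. When only genes without an overlap were fitted, 28 of 28 chaperone genes were above the median gene. Fkbp5 and Dnajb1, which have no overlap, did not pass edgeR's test over all genes (adjusted p = 0.223 and 0.425). The call for these 2 genes thus depends on the genes fitted. The share of all genes without an overlap that passed is not given here.

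**Figure D4:**
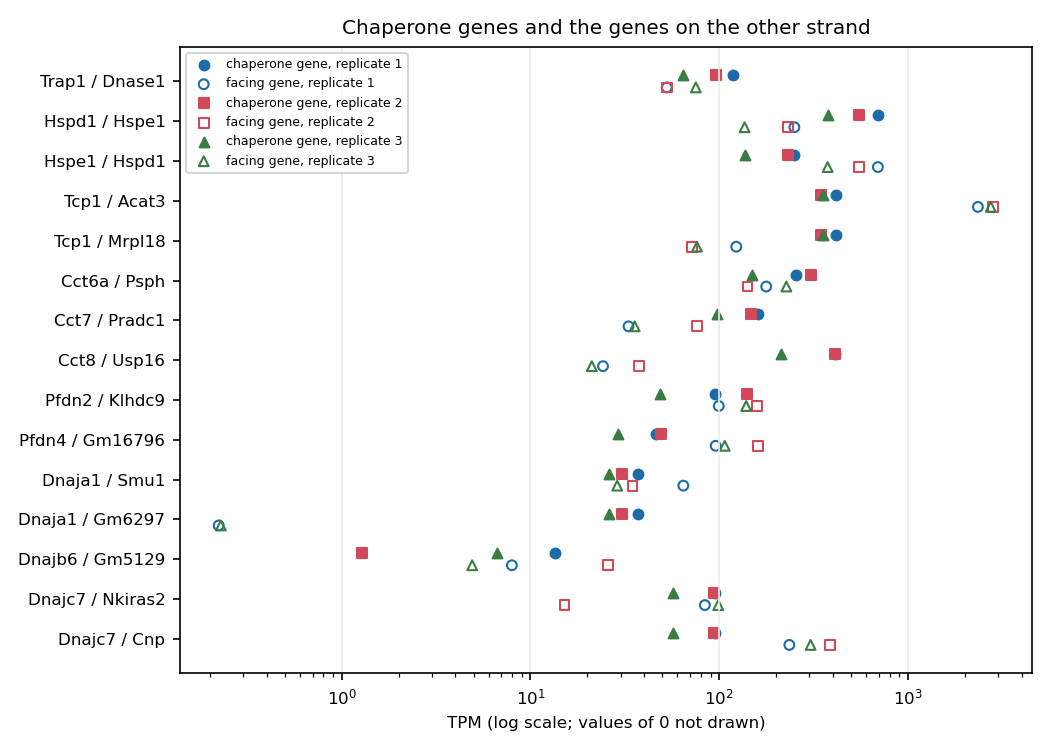
TPM on a log axis of chaperone genes (filled symbols) and of the gene on the other strand (open symbols) in each library; values of 0 are not drawn. Acat3 lies above Tcp1 and Cnp above Dnajc7 in every library, whereas Usp16 lies below Cct8.

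The wider chaperone network was read from a list of 112 further genes, of which 94 had enough counts to test. Of these, 39 lay above the median gene (35.1% of all genes tested did), 18 below it and 37 in neither direction. Among further HSP90 cochaperones 9 of 15 tested lay above, led by Nudc at 398 ± 176 TPM, then Ahsa2, whose exons overlap a gene on the other strand, at 309 ± 65.0 TPM, Sugt1 at 122 ± 27.7 TPM and Ppp5c at 103 ± 32.9 TPM (SD, n = 3). Of 11 mitochondrial import and protease genes 7 lay above, among them the matrix protease Lonp1 at 143 ± 49.0 TPM. Of 28 other J-domain proteins tested, 8 lay above and 10 below. Of 14 other cytosolic HSP70, HSP110 and exchange factor genes tested, 3 lay above and 4 below. The ribosome-bound Naca had 186 ± 48.3 TPM. Vbp1, the prefoldin subunit outside the 40 genes, had 68.0, 149 and 43.1 TPM in replicates 1, 2 and 3 and, like Pfdn1 and Pfdn2, was highest in replicate 2.

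Other members of the HSP70, small heat shock protein and heat shock factor families were also read. Hspa1l, whose exons overlap a gene on the other strand, had 22.3 ± 11.2 TPM (SD, n = 3). Its log2 level over the median gene was 0.62, and it passed in neither direction. Hspa1a, whose exons overlap a gene on the other strand, had 2.44 ± 0.403 TPM and lay below the median gene, while Hspa1b had 10.2 ± 8.02 TPM and passed in neither direction (SD, n = 3), beside 811 ± 264 TPM for Hspa8. Of the 10 small heat shock proteins, 2 had enough counts to test and neither passed, and Hspb1 had 0.948 ± 1.26 TPM. Among the other heat shock factors, Hsf2 had 3.81 ± 1.26 TPM, below the median gene, Hsf4 had 0.182 ± 0.315 TPM, and Hsf3 and Hsf5 had no count, beside 50.8 ± 32.9 TPM for Hsf1. Bag1, which releases nucleotide from HSP70, had 243 ± 81.4 TPM, and Bag3, its stress-inducible relative, 6.03 ± 1.81 TPM.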

How the data were processed

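The authors deposited raw fragment counts per gene, 1 file per library, made with featureCounts 1.4.6-p4 on mm10 with GENCODE mouse release 13 and strand setting 1, per the file headers. No aligner is named: not given in the sources used here. Total RNA is the assay label, whereas the name of the linked protocol refers to polyadenylated RNA. The number of per-sample columns not used was 0.

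Gene names came from GENCODE mouse release 21 (GRCm38), matching 50376 of 50600 genes. TPM was computed from the counts and the deposited exon lengths. An overlap means any shared exon base with a gene on the other strand. With 1 group, levels were tested with edgeR 4.0.16's quasi-likelihood F on an intercept, computed directly because glmQLFTest needs more than an intercept, and between genes with offsets from the denominator gene, both over all genes with a mean count of at least 10. Library differences used a chi-square test on TMM-scaled counts, the lowest library being taken at no less than 3 counts. limma 3.58.1 and DESeq2 1.42.0 size factors served as alternatives. Intervals in replicate 2 cover counting error only. The procedures were tested on simulated data.

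Every one of the 40 genes may be named, with genes facing them, markers and listed further chaperones. The members and lists were chosen with earlier results of these data known. The replicates come from 1 donor record, so p-values measure only the spread between these libraries. Replicate pairs differed beyond sampling noise, with a chi-square per degree of freedom of 5.41 to 32.5.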

Additional observations from a re-analysis of the deposited data

How the results depend on the processing

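No paired analysis was possible because all libraries belong to 1 group. All 40 genes stayed detected in every setting except a minimum of 10 TPM (39). The 37 genes above the median became 28 of 28 among genes without an overlap, 29 of 37 when the count filter was raised to 100, 36 and 35 with limma at pseudocounts of 1 and 0.1, 39 with no filter, and 33 to 37 with a replicate left out. With that filter, under which the median is taken over higher genes, 3 lay below it. The share of all genes above the median is given for the main fit alone (35.1%), so the counts of the other settings have no such share beside them. The share of TPM was 2.54% among genes without an overlap, and the share of counts was 1.78%; leaving out a replicate gave 0.958% to 1.24%. The 7 genes varying between libraries became 11 of 40 at a ratio of 1.5, beside 47.8% of all genes tested. Among genes without an overlap they became 4 of 28, beside 17.3% of such genes. With a replicate left out they became 0 to 5, beside 11.8% to 18% of all genes. The 3731 of all genes became 1750 with the filter at 100, 1201 without overlapped genes and 1332 to 1941 with a replicate left out. The median of the 40 means, 130 TPM, was 414 TPM scaled over genes without an overlap, and 115 to 151 TPM with a replicate left out. The deviation of replicate 3, -0.74, became -0.14 on that scale, -0.28 in TMM-scaled CPM and -0.85 to -0.70 with a replicate left out. These alternatives for replicate 3, and the principal transcript length, were added after the data were seen. Pairs past the test numbered 17 with that length, 22 with limma, 24 with no filter and 21 to 23 with a replicate left out. Reversed were Dnajb6 over Dnajb1 (0.30), Cct4 (-0.27), Cct6a (-0.14) and Cct7 over Cct3 (-0.0092) with the principal length, and Pfdn2 over Pfdn5, at -0.098 with all libraries, which ran from -0.47 without replicate 2 to 0.093 without replicate 1, with 0.070 without replicate 3. Apart from those lengths, the causes of these shifts were not tested. Depth limits replicate 2, where 7 of the 40 genes had under 20 counts.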
